A study of Mus musculus with 12 samples.

Results

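Wild-type (wt) mice killed 8 h after status epilepticus were compared with vehicle-injected wt mice for miRNA levels in the hippocampus on the injected side. The comparison used 6 of the 12 samples, 3 wt post-SE (post-status epilepticus) and 3 wt control, and 371 of 619 miRNA assays, namely those with a threshold cycle (Ct) in all 6 samples. The wt mice were C57BL/6 and 8 weeks of age. Kainic acid (KA, 0.3 µg), a glutamate receptor agonist, was given into the amygdala to the wt post-SE mice, and the wt control mice got phosphate-buffered saline. All of them, controls included, then received lorazepam (6 mg/kg) 40 min later to stop the seizures, so the drug was common to both groups. The other 6 samples came from P2rx7-/- mice, which lack the ATP-gated P2X7 receptor throughout the body, under the same 2 treatments. Each sample pooled 2 hippocampi of separate mice, and TaqMan OpenArray panels were run on 1 µg of its total RNA.

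A miRNA is cut from a hairpin that can yield a strand from each arm. The guide strand usually loads into the silencing complex and pairs with target mRNAs through its seed, while the passenger strand, marked with *, is usually degraded. Seizures are known to alter the miRNAs of the hippocampus, among them the activity-regulated miR-132, miR-212 and miR-134, which act on dendrites and their spines, and miR-21, miR-146a and miR-155, which take part in inflammation.

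Some strands of the comparison are given here, from 5′ to 3′, as mouse RefSeq has them (GRCm38.p6). Capitals mark the seed, bases 2 to 8. Listed are the named passenger strands that were higher in wt post-SE mice, each with its guide, and 3 miRNAs of the activity-regulated group.
miR-21* (chr11:86584082-86584103, minus strand): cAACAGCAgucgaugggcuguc
miR-21 (chr11:86584120-86584141, minus strand): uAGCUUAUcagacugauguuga
miR-335* (chr6:30741354-30741375, plus strand): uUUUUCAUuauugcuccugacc
miR-335 (chr6:30741314-30741336, plus strand): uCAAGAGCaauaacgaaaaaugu
miR-27a* (chr8:84208685-84208706, plus strand): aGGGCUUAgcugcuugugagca
miR-27a (chr8:84208727-84208747, plus strand): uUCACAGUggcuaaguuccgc
miR-212 (chr11:75173443-75173464, plus strand): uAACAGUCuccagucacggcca
miR-132 (chr11:75173723-75173744, plus strand): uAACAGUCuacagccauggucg
miR-134 (chr12:109734145-109734166, plus strand): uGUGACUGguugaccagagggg
miR-212 and miR-132 share their seed and lie 280 bases apart, start to start.

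The normalised level of an assay was the mean Ct of the 371 assays in that sample minus the Ct of the assay. It is a log2 scale on which 1 unit is 1 cycle and 0 is the mean of the sample. The sample wt control 1 stood apart from the rest. Its levels had rank correlations of 0.700 to 0.736 with the other wt samples, which correlated at 0.934 to 0.968 among themselves, and 87 of its 371 levels were more than 2 units away from the median level of the remaining wt samples, against 12 to 35 levels for each of those. It gave a Ct for 470 miRNA assays, the other wt samples for 476 to 535, and 60 assays lacked a Ct there and in no other wt sample. The counts over all assays and over the lists discussed are therefore given with and without wt control 1. Among the miRNAs of neurons, miR-124a had a median Ct of 14.3, miR-128a of 14.1 and miR-137 of 14.3 over the 6 samples. miR-138 had a Ct in 5 samples, at 24.0 in wt control 1 and between 10.4 and 11.3 in the others, and miR-9 had a Ct in 1. The liver miRNA miR-122 had a median Ct of 24.1 in the 5 samples where it was listed. Of the muscle miRNAs, miR-133a had a median Ct of 15.7 and miR-206 of 22.5 over the 6 samples. For miR-1 the median was 21.5 and 21.8 in separate assays, while miR-208b, of heart muscle, had no Ct.

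The passenger strand miR-21* and miR-685 stood highest over the controls relative to the standard error. No assay passed the adjusted threshold of 0.05 in limma (0 of 371, 0%), and 8 (2.16%) had an unadjusted p below 0.05. Without wt control 1, again 0 passed and 12 (3.23%) had such a p. In 21 assays (5.66%) all 3 wt post-SE levels were above all 3 wt control levels, and in 18 (4.85%) all were below. Without wt control 1, which leaves fewer control values to exceed, these counts were 40 (10.8%) and 24 (6.47%). On the fold change (FC) thresholds of the study, 94 assays (25.3%) had an average FC above 1.5 and 47 (12.7%) below 0.6, and without wt control 1 the counts were 65 (17.5%) and 25 (6.74%), of which 52 and 16 were shared with the full set. With the wells of snoRNA202, a small nucleolar RNA used as reference, as normaliser the split turned to 62 above and 85 below. With snoRNA135 it was 113 and 34. The snoRNA202 wells had median Cts of 10.1 to 10.4, near the lowest listed, and only 3 of them had a Ct in wt control 3. Those of snoRNA135 had median Cts of 14.2 to 15.1.

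miR-21* had normalised levels of -6.02, -6.57 and -5.50 in the wt control samples and of -3.93, -3.48 and -3.52 in the wt post-SE samples. The groups lay far apart, and the lowest post-SE level exceeded the highest control level by more than the range within either group. The log2 difference was 2.39 ± 0.38 (SE, n = 3 per group; 95% interval 1.45 to 3.33), an average FC of 5.29, with an adjusted p of 0.333 in limma. It was again 2.39 without wt control 1. The guide strand miR-21, a widely studied miRNA of injury and glial reaction, had levels of 5.21, 3.36 and 3.04 in the controls and of 3.12, 2.63 and 3.63 post-SE. Those groups overlapped, with a log2 difference of -0.74 ± 0.66, and of -0.07 without wt control 1.

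miR-685 had levels of -3.17, -1.49 and -3.37 in wt control and of 0.23, 0.18 and 0.24 in wt post-SE samples. The 3 post-SE levels were almost equal and lay above every control. Its log2 difference of 2.89 ± 0.56 gave an average FC of 7.42, with an adjusted p of 0.441 in limma, and it was 2.64 without wt control 1. miR-335*, from a hairpin within the imprinted Mest gene, had levels of 1.56, 1.45 and 1.62 in wt control and of 2.60, 2.45 and 2.38 in wt post-SE samples. The groups did not overlap, and the difference was 0.93 ± 0.26, or 0.94 without wt control 1. Its guide, miR-335, differed by -0.16 ± 0.33 between overlapping groups.

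miR-27a* had control levels of -3.63, -3.56 and -2.69 and post-SE levels of -2.50, -2.02 and -2.55. All post-SE samples were above the controls, by little in the case of wt control 3, and the difference was 0.94 ± 0.38, or 0.77 without wt control 1. Its guide, miR-27a, was at -7.52 in wt control 1 and between 1.36 and 1.80 in the other 5 wt samples, so that its log2 difference of 3.18 became 0.19 once that sample was left out. miR-2135 was higher in wt post-SE samples by 1.17 ± 0.43, with no overlap. miR-450 and miR-669N were higher by 3.04 ± 1.24 and 3.14 ± 1.34, and in both the level of wt post-SE 2 (-1.96 and 0.95) stood well above those of the other post-SE samples. Without wt post-SE 2 the differences were 1.63 and 1.78.

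**Figure D1:**
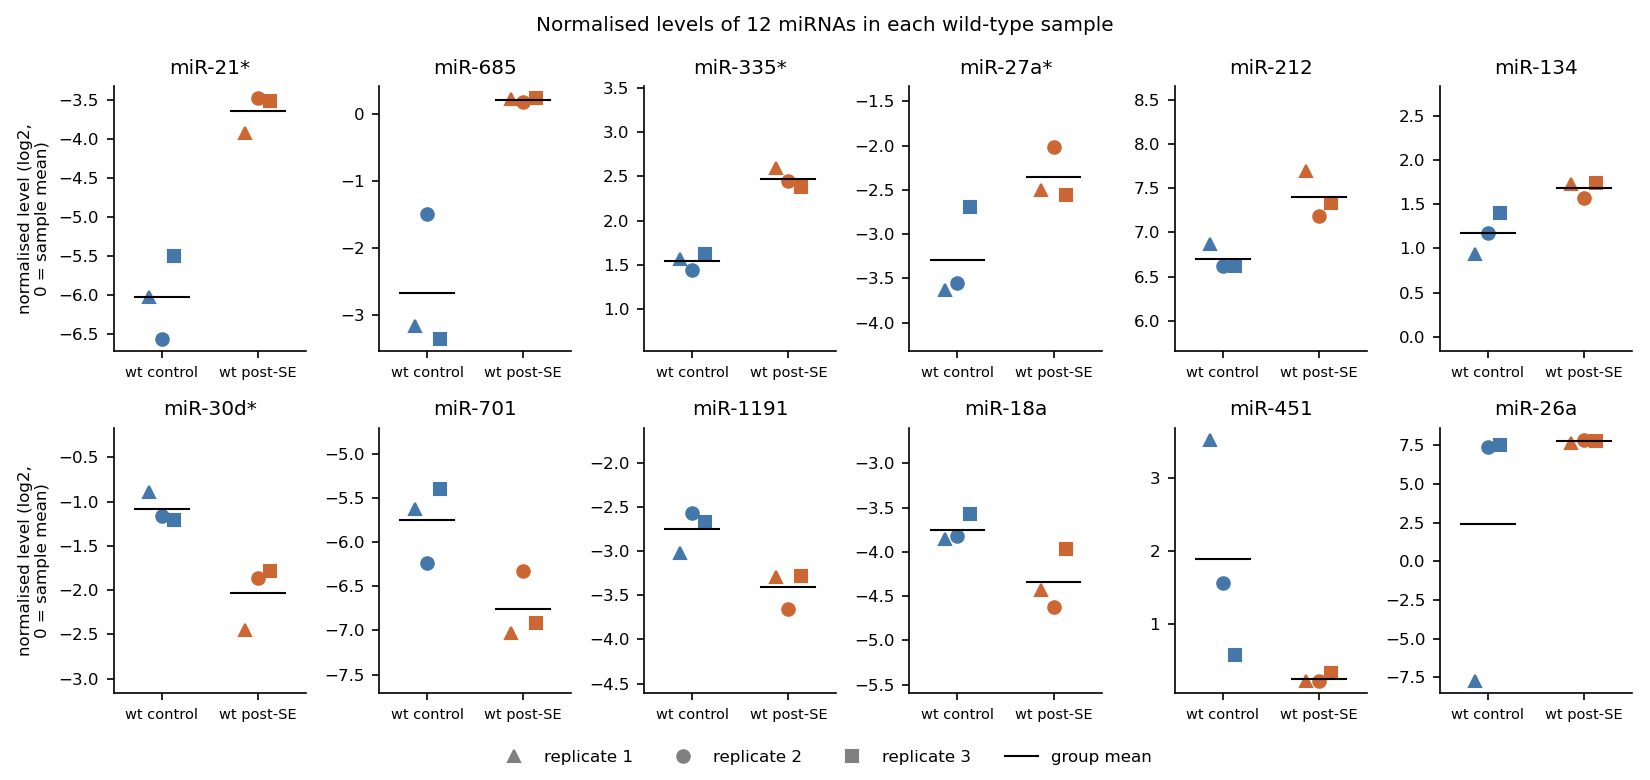
Normalised levels (log2, 0 is the sample mean) of 12 named miRNAs in the 3 wt control (blue) and 3 wt post-SE (orange) samples, a symbol per replicate, with the group mean as a line and a separate vertical axis for each panel. miR-21* and miR-335* separate the groups by more than the spread within them, the 3 post-SE levels of miR-685 coincide near 0.2, and the control mean of miR-26a is set by wt control 1 at -7.77.

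Of 5 activity-regulated assays on the panel, 4 had a Ct in all 6 samples, and 3 of these lay above 0, where 158 of all 371 assays did. Their median log2 difference was 0.53 against -0.07 over all assays, 2 were higher without overlap (5.66% over all assays), and none passed the adjusted threshold. With wt control 1 left out all 4 lay above 0, against 194 of 371, with a median of 0.78, and 3 were higher without overlap (10.8% over all assays). miR-212, which is transcribed with miR-132 under control of CREB, had levels of 6.87, 6.62 and 6.62 in wt control and of 7.69, 7.18 and 7.33 in wt post-SE samples. Every post-SE level was above every control level, and the difference was 0.70 ± 0.29, or 0.78 without wt control 1. miR-132 had no Ct in wt control 1. Normalised over the 431 assays with a Ct in the other 5 samples, its levels were 8.29 and 8.21 in the controls and 8.65, 8.67 and 8.57 post-SE. These levels did not overlap either, with a difference of 0.38 ± 0.25. Its Cts, however, lay near the lowest listed, at 10.4 and 10.2 in the controls and 10.7, 10.3 and 10.2 post-SE. They overlapped, so the groups separated only once the sample mean was subtracted. The same held for miR-212, miR-134, miR-335*, miR-27a*, miR-1191 and miR-18a, whose Cts overlapped as well. The Cts of miR-21*, miR-685, miR-30d* and miR-701 did not overlap.

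miR-134, which limits the size of dendritic spines through Limk1, had levels of 0.93, 1.18 and 1.40 in wt control and of 1.73, 1.58 and 1.74 in wt post-SE samples. The groups did not overlap, and the difference of 0.51 ± 0.28 had a 95% interval of -0.18 to 1.20. From the same miR-379 to miR-410 cluster, miR-485-5p had control levels of 7.72, 0.67 and -1.43 and post-SE levels of 1.41, 1.02 and 1.07. Its sign rested on wt control 1, since the difference was -1.16 with that sample and 1.55 without it. The other arm, miR-485-3p, differed by 0.55 ± 0.45 between overlapping groups. The cluster as a whole lay near 0. Of its 45 assays in all 6 samples 23 were above 0 (158 of 371 over all assays), with a median of 0.02 against -0.07. In this cluster 4 were higher without overlap (5.66% over all assays), among them miR-541 (0.35) and miR-376b (4.20, and 0.97 without wt control 1). Without that sample 28 were above 0 (194 of 371 over all assays), with a median of 0.05 against 0.02. Then 7 were higher and 1 lower without overlap, where 10.8% and 6.47% of all assays were.

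The miRNAs tied to inflammation were spread to both sides. Of 11 assays 9 had a Ct in all 6 samples, 6 above 0 and 3 below, with a median log2 difference of 0.39, and miR-21* was the only one without overlap (over all assays 5.66% were higher and 4.85% lower). In the absence of wt control 1, 5 were above 0 and 4 below, with a median of 0.25, and 2 were higher without overlap (10.8% over all assays). Over all assays 158 of 371 were above 0, and 194 without wt control 1. miR-155, which promotes inflammatory signalling, had levels of 0.36, -0.32 and 0.48 in wt control and of -0.43, 1.04 and 1.94 in wt post-SE samples. The post-SE samples enclosed the controls, and the difference of 0.68 ± 0.66 had a 95% interval of -0.96 to 2.32. miR-146a, which restrains Toll-like receptor signalling, was missing in wt control 1, and on the scale of the other 5 samples had levels of 5.92 and 6.54 in the controls against 7.31, 6.12 and 6.51 post-SE. The overlap was complete but for wt post-SE 1. Its relative miR-146b, with the same seed, differed by 0.12 ± 0.46 in one assay and by 0.39 ± 0.35 in the other, each with overlap. The RefSeq strands show how little separates the pair.
miR-146a: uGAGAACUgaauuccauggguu
miR-146b: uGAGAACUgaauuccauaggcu
miR-223, a myeloid miRNA, differed by -0.72 ± 0.64 and -0.41 ± 0.65 in its 2 assays. miR-142-3p, of blood-derived cells, differed by 0.54 ± 0.59, and wt post-SE 1 alone (2.97, against 0.93 to 1.24 in the other 5 samples) gave it that sign, the difference being -0.10 without it.

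Among the miRNAs that were lower in wt post-SE mice, miR-30d* had levels of -0.89, -1.16 and -1.20 in wt control and of -2.45, -1.86 and -1.79 in wt post-SE samples. The groups were separate, and the difference was -0.95 ± 0.32. Its guide, miR-30d, differed by 0.12 ± 0.31. miR-701 had control levels of -5.63, -6.24 and -5.40 and post-SE levels of -7.03, -6.33 and -6.91, a difference of -1.0 ± 0.37 in which wt control 2 and wt post-SE 2 nearly met. miR-1191 differed by -0.65 ± 0.30, without overlap. The widest differences below 0, miR-1898 (-7.72 ± 2.51) and miR-1188 (-4.54 ± 1.54), came with controls that ranged from -0.89 to 9.05 and from -4.17 to 1.49. Leaving out 1 sample gave -10.4 (without wt control 3) to -5.46 (without wt control 1) for miR-1898 and -6.04 (without wt control 2) to -3.21 (without wt control 3) for miR-1188.

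The cluster that runs from miR-17 to miR-92 and its paralogues, which promote proliferation and growth, had 11 of 13 assays below 0, where 213 of all 371 were, with a median of -0.38 against -0.07, and 2 were lower without overlap (4.85% over all assays). Leaving out wt control 1, again 11 were below 0 (177 of 371 over all assays), with a median of -0.38. Then 2 were lower and 1 higher without overlap, where 6.47% and 10.8% of all assays were. On the FC thresholds, which weigh single high samples, 4 were above 1.5 (25.3% over all assays) and 1 below 0.6 (12.7%). miR-18a, one of these, had levels of -3.85, -3.82 and -3.58 in wt control and of -4.43, -4.63 and -3.97 in wt post-SE samples. The nearest samples of the groups, wt control 1 and wt post-SE 3, lay close together, and the difference was -0.59 ± 0.31. The other was miR-19a, at -0.55. The passenger strand miR-18a* differed by 0.20 ± 0.44 with overlap.

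miR-451 and miR-486, which red blood cells carry in large amounts, were lower without overlap. miR-451 had levels of 3.53, 1.57 and 0.57 in wt control and of 0.21, 0.21 and 0.33 in wt post-SE samples, and differed by -1.64 ± 0.77. Without wt control 1, which had the highest level, the difference was -0.82. miR-486 differed by -1.0 ± 0.50, and by -0.56 without wt control 1. The summed level of the pair ran from 2.55 to 4.72 in the controls and from 2.23 to 2.45 post-SE, while the third marker of the list, miR-144, had a Ct in 3 of the 6 samples. In these bulk samples fewer cells of a type and less RNA per cell cannot be told apart, and the part of blood left in the tissue was not tested. The summed level of the neuronal markers in all 6 samples, miR-124a, miR-128a and miR-137, was 5.26 to 6.21 in wt control and 6.12 to 6.64 in wt post-SE samples, and that of the oligodendrocyte markers miR-219 and miR-338-3p was 1.83 to 1.97 and 1.08 to 2.35. Both overlapped.

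The families of abundant guide strands lay near 0 once wt control 1 was left out. The let-7 family, which holds back growth and stem cell genes, had 6 of 7 assays below 0 (213 of 371 over all assays). Its median log2 difference was -0.11, or -0.05 without that sample, with let-7a apart at 2.14 and 2.26. The level of let-7a* minus that of let-7a was -9.73 in wt post-SE 1 and between -5.50 and -4.09 in the other wt samples. The miR-30 guides had a median of 1.15 over 4 assays that became 0.20, as miR-30a-5p went from 3.29 to 0.51 and miR-30c from 2.19 to 0.06. The medians were -0.34 and -0.10 for the 2 miR-29 guides, -0.02 and 0.10 for 6 assays of the miR-15/16 family, -0.02 and 0.26 for 3 of the miR-181 family, and -0.03 and 0.05 for 5 of miR-23, miR-24 and miR-27. The 11 assays of the rodent cluster within Sfmbt2 had medians of -0.05 and -0.09. With all 6 samples miR-669N was the 1 assay higher without overlap (5.66% over all assays). Of 65 passenger strands, 3 were higher and 6 lower without overlap and the median was -0.01, against 18 and 12 of the 306 other assays with a median of -0.09. With wt control 1 omitted these counts were 6 and 6 of the passenger strands and 34 and 18 of the others. The single vessel wall miRNA in all 6 samples, miR-145, differed by 2.04, and by 1.05 without wt control 1, with overlap in both cases. Its levels were 2.03, 4.71 and 5.27 in wt control and 8.05, 4.99 and 5.09 in wt post-SE samples. Among the post-SE samples only wt post-SE 1 thus stood above all controls.

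**Figure D2:**
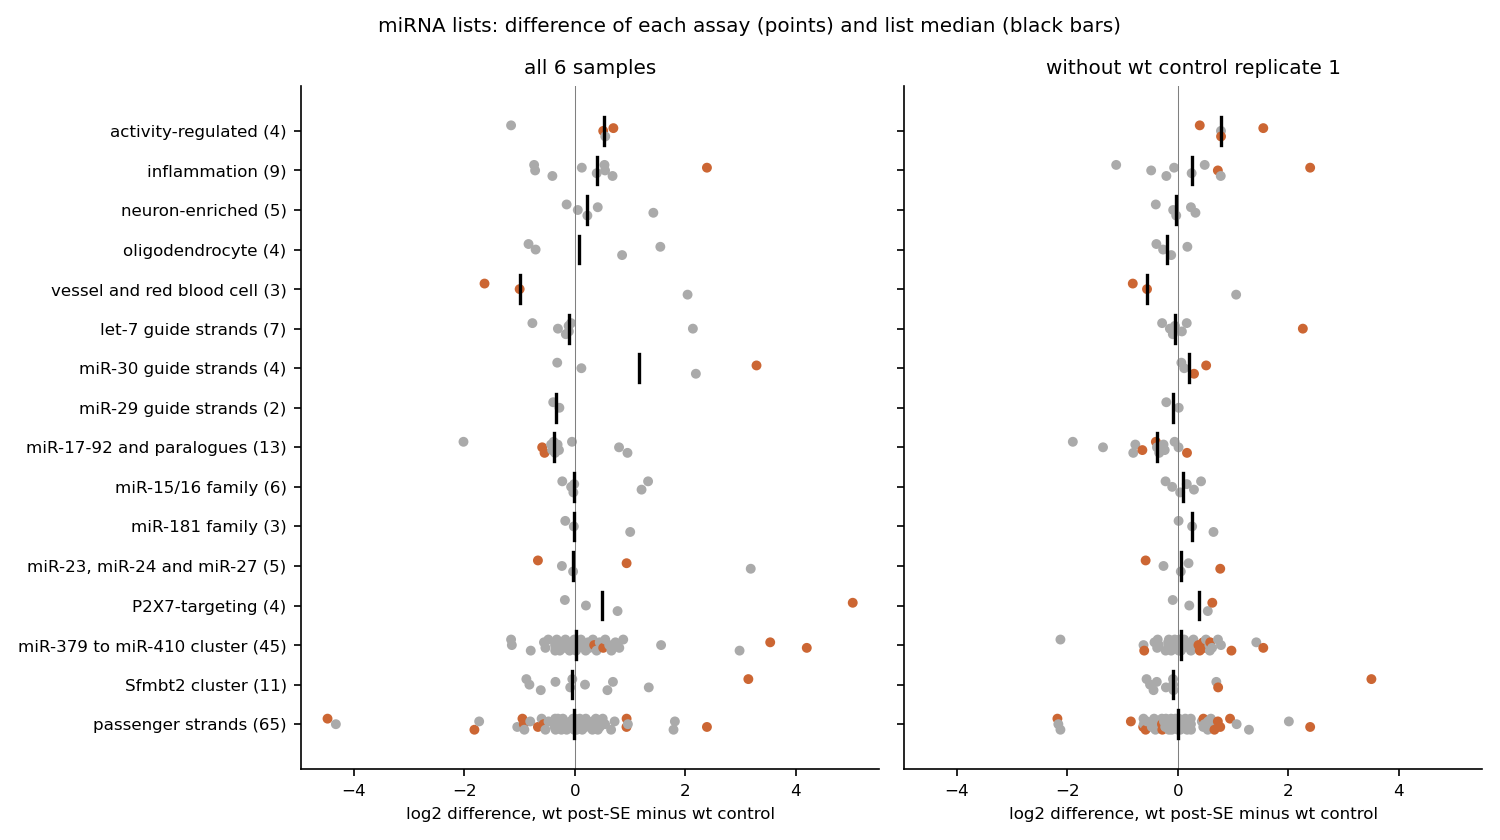
Log2 difference between wt post-SE and wt control samples for the assays of each miRNA list (points, number of assays in brackets) and the list median (black bar), with all 6 samples (left) and without wt control replicate 1 (right); orange points had no overlap between the groups. The medians of the activity-regulated miRNAs (0.53 and 0.78) lie to the right of 0 and those of the cluster from miR-17 to miR-92 (-0.38 and -0.38) to the left in both panels.

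Both strands of a hairpin had a Ct in all 6 samples for 48 pairs of assays from 44 hairpins. The gap between passenger and guide level within a sample does not depend on the normaliser, and as assays amplify unequally only its difference between groups is read here. The gap was higher post-SE without overlap in 3 of 48 pairs (6.25%), miR-21, miR-29b and miR-335, and lower in 5 (10.4%), miR-191, miR-214, miR-27b, miR-30d and miR-376a. When wt control 1 was left out, 8 pairs were higher (16.7%) and 8 lower (16.7%), these 8 included. For miR-21 the gap was -11.2, -9.92 and -8.54 in wt control and -7.05, -6.11 and -7.15 in wt post-SE samples, a difference of 3.13, or 2.46 without wt control 1. For miR-335 it was -1.17, -0.77 and -0.49 against 0.52, 0.47 and -0.13, a difference of 1.10. The passenger strand was nearer to its guide, or above it, in every post-SE sample of these pairs than in any control.

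The opposite held for miR-30d, whose gap was -5.00, -4.73 and -4.82 in wt control and -6.06, -5.88 and -5.81 in wt post-SE samples. Both groups were tight, and the gap differed by -1.07. miR-27b, with gaps of -4.67, -4.68 and -4.66 against -4.80, -5.80 and -5.33, differed by -0.64, with miR-27b* at a log2 difference of -0.67 ± 0.35 and its guide at -0.03 ± 0.29. The pairs miR-191 and miR-376a had their highest gap in wt control 1, and the differences of -5.81 and -3.86 were -2.38 and -1.08 without it. A second assay for miR-376a* gave overlapping groups and a difference of -3.54, or -0.22 without wt control 1, so that the assays of this strand did not give the same order. With 3 samples against 3 the exact two-sided permutation test cannot give a p below 0.1, which all 8 pairs had, so that none could pass the threshold. Across all 48 pairs the differences of the strands had the same sign in 23, and in 25 without wt control 1.

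**Figure D3:**
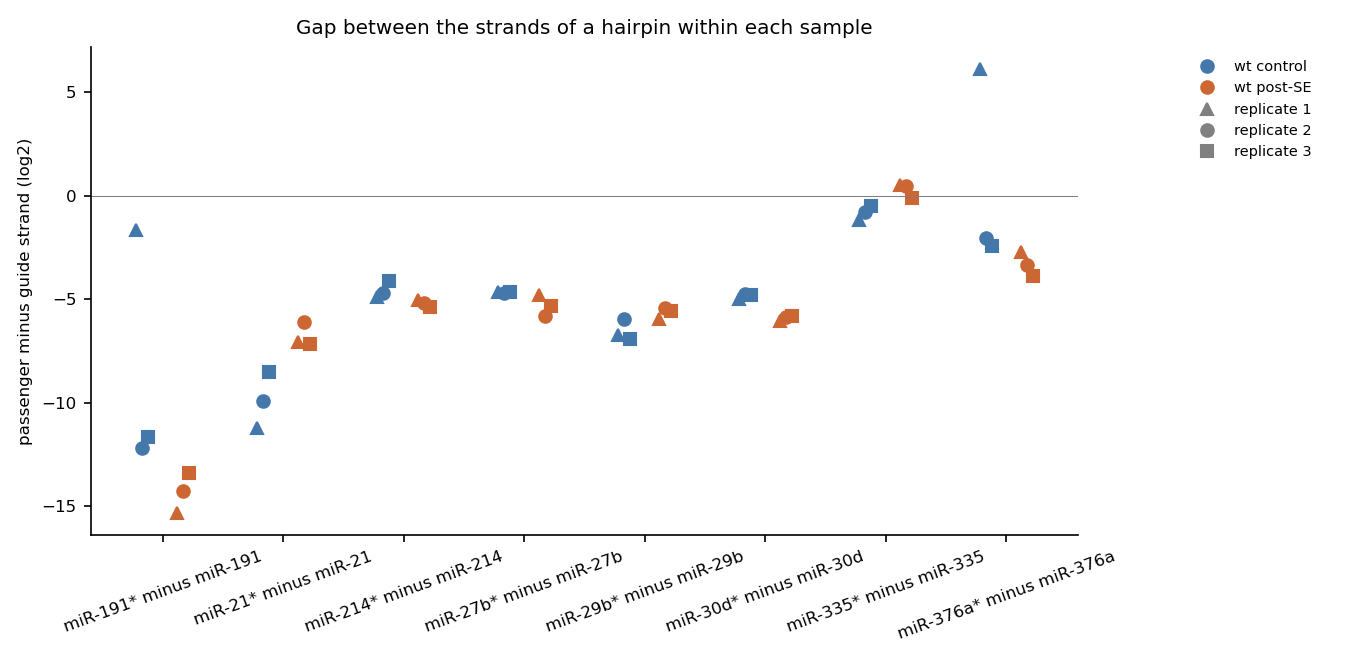
Passenger minus guide level (log2) within each wt sample for the 8 pairs of assays whose groups did not overlap, with wt control in blue, wt post-SE in orange and a symbol per replicate. The gap of miR-21 is nearer to 0 and that of miR-30d farther from 0 in all 3 post-SE samples, and wt control 1 stands far above the rest for miR-191 and miR-376a.

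The largest log2 differences above 0 belonged to abundant miRNAs that were nearly absent from wt control 1. miR-26a, a miRNA found in most tissues, was at -7.77 in that sample and between 7.40 and 7.85 in the other 5, and its difference was 5.37 ± 4.25 with wt control 1 and 0.30 without. miR-150, a lymphocyte miRNA also reported to target P2rx7 mRNA, was at -6.66 there and between 6.51 and 7.89 elsewhere, and its difference went from 5.03 to 0.62. miR-99a (4.10 to 0.26) and miR-376a (3.54 to 0.45) did likewise. On the other side, miR-431* (-4.33 to -2.16) and miR-493-3p (-3.76 to -0.94) had their highest level in wt control 1. The sign of 86 assays turned when the sample was left out, the assays with a difference over 1 in size went from 85 to 46, and the median SE went from 0.503 to 0.389.

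**Figure D4:**
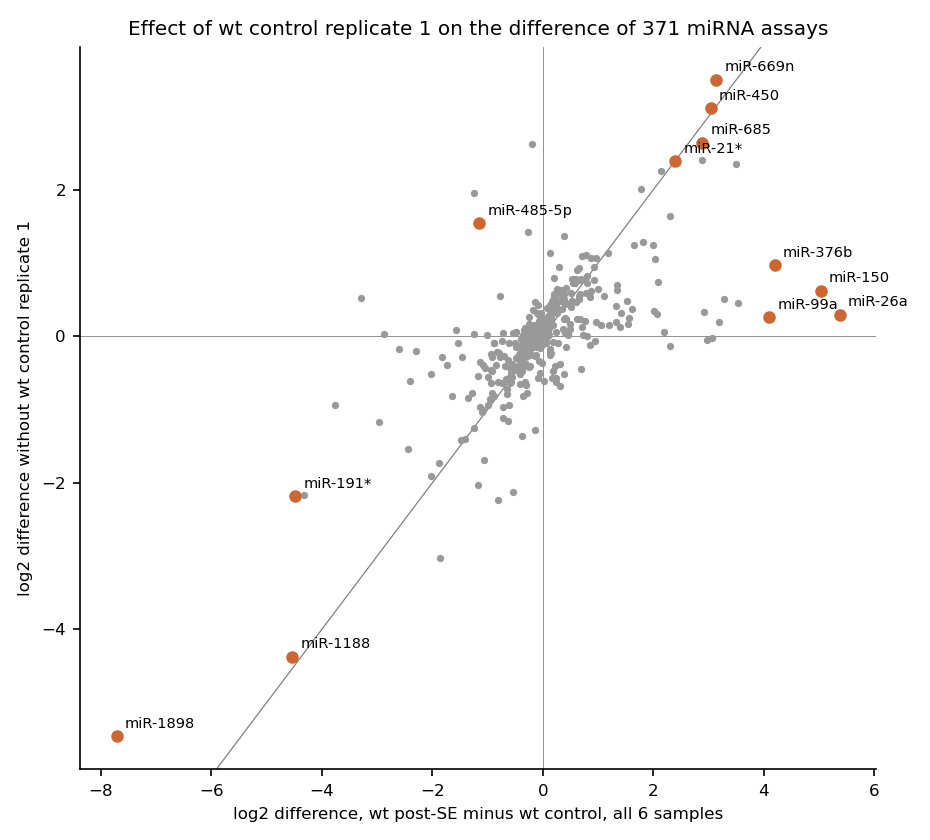
Log2 difference (wt post-SE minus wt control) of the 371 assays with all 6 samples (horizontal) and without wt control replicate 1 (vertical), with the line of equal values. miR-21*, miR-685, miR-450 and miR-1188 lie near the line, whereas miR-26a, miR-150 and miR-99a lie at 0.26 to 0.62 on the vertical axis and miR-485-5p changes sign.

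Of the other miRNAs studied as regulators of P2rx7, miR-22 differed by -0.18 ± 0.36 (95% interval -1.09 to 0.72), and miR-187 by 0.77 ± 0.55 (average FC 1.72), or 0.21 without wt control 1, with overlap in both cases. The neuronal miR-124a, at 3.99, 4.39 and 4.65 in wt control and 4.42, 4.77 and 5.07 in wt post-SE samples, differed by 0.41 ± 0.34 with overlap. miR-9, likewise neuronal, had a Ct in wt post-SE 1 alone, at 10.1, the lowest Ct listed for any wt sample, so its level in the others is not known. A Ct in all 3 wt controls and in no wt post-SE sample was found for 4 of 619 assays, namely miR-196a*, miR-217, miR-183 and miR-670, and 0 assays the reverse. Of these miR-196a* was listed at Ct 10.7 to 14.2 in the wt controls and also at 10.1 to 11.8 in the 3 P2rx7-/- post-SE samples.

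Some miRNA names were read by a pair of different assays, many with the prefixes of different species. Their mean control levels could differ, as for miR-421 (-2.93 and 2.01), so the gaps below do not measure precision alone. In 19 such pairs the log2 differences lay a median of 0.370 apart, and 6 pairs were over 1 apart. The miRNAs miR-136 (-1.85 and -0.41) and miR-421 (-2.60 and 0.02) were among them. Without wt control 1 the median gap was 0.585 and 2 pairs exceeded 1.

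The P2rx7-/- mice gave a comparison with no sample in common, over 335 assays with a Ct in all 12 samples. There 13 assays (3.88%) were higher and 9 (2.69%) lower in post-SE than in control samples without overlap. Of the 19 assays that were higher in wt mice and in this set, 15 were above 0 in P2rx7-/- mice, where 180 of all 335 were, and 4 were higher without overlap there too. These were miR-21*, miR-685, miR-335* and miR-27a*, with P2rx7-/- differences of 1.95, 2.03, 0.50 and 0.85. miR-212 and miR-134 were at 0.57 and 0.39, and the activity-regulated miR-485-5p and miR-485-3p at -0.02 and -0.48, all with overlap. Thus 2 of these 4 assays were above 0 in P2rx7-/- mice. Of the 17 that were lower in wt mice, 6 were below 0 in P2rx7-/- mice, where 180 of all 335 assays were above 0. Among the 17, miR-1274A was the only one lower without overlap there (2.69% over all assays), while miR-1191 was higher without overlap.

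For some miRNAs the genotypes lay on opposite sides of 0. miR-701 differed by -1.0 in wt and by 0.97 in P2rx7-/- mice, miR-1191 by -0.66 and 0.47, and miR-30d* by -0.95 and 0.37. The difference between the responses was -1.97 ± 0.60, -1.13 ± 0.37 and -1.32 ± 0.46, each with an adjusted p of 0.851 in limma. No assay passed in this interaction test (0 of 335, 0%; 8 at an unadjusted p below 0.05), so that neither a shared nor a separate response was shown for any one miRNA. Across the 335 assays the responses of the genotypes had a Pearson correlation of 0.05, and of 0.09 without wt control 1, over assays of the same panels.

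**Figure D5:**
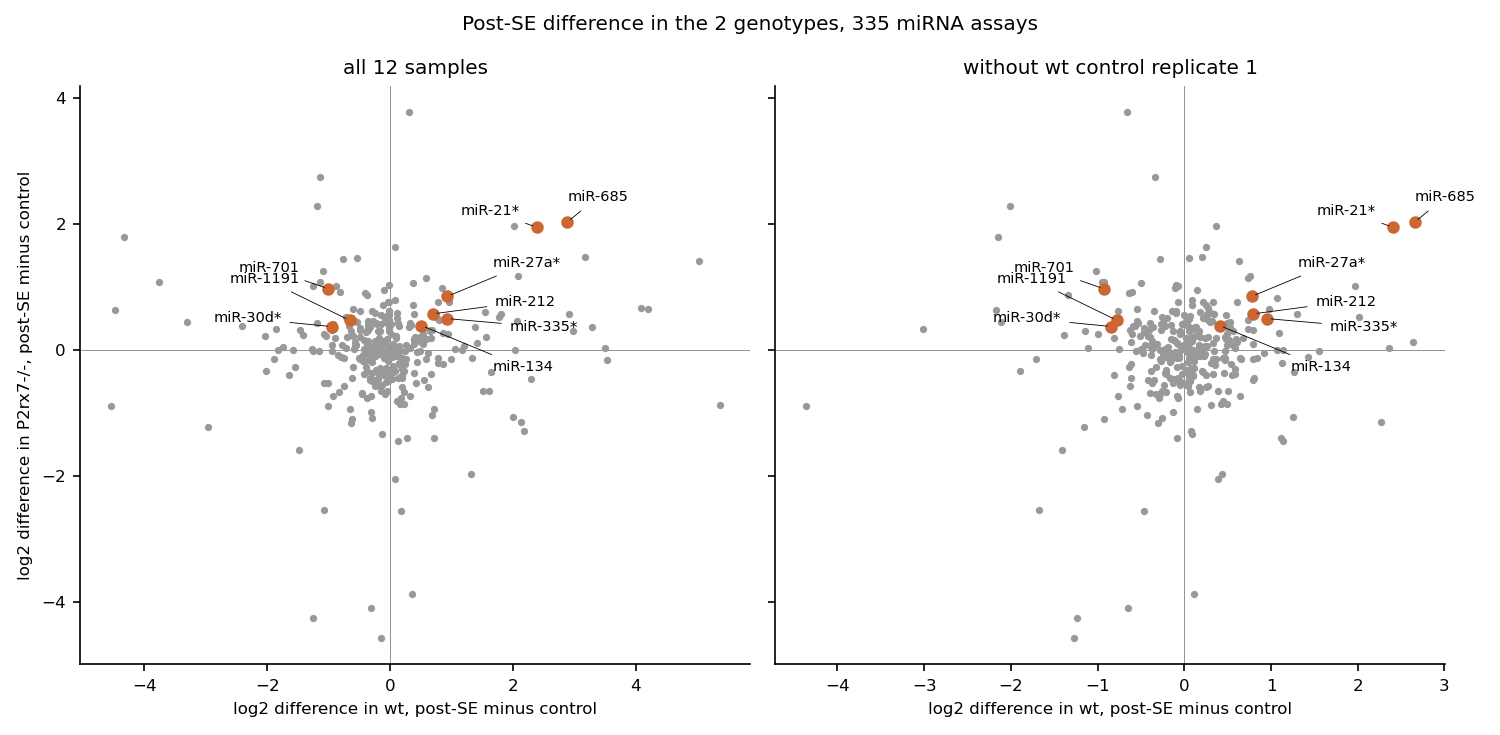
Post-SE minus control log2 difference in wt mice (horizontal) and in P2rx7-/- mice (vertical) for 335 assays, with all 12 samples (left) and without wt control replicate 1 (right). miR-21* and miR-685 lie at the upper right in both panels, miR-701, miR-1191 and miR-30d* to the left of 0 and above it, and most assays form a round cloud.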

How the data were processed

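MiRNAs were profiled on TaqMan OpenArray panels (QuantStudio 12K Flex) after reverse transcription and pre-amplification. The authors deposited raw Ct values; these are cycle numbers, listed between about 10.1 and 28.0, with empty cells where none was listed. RNA degradation was not assessed, and the software of the Ct calls is not given in the sources used here. Their table of fold changes relative to wt control 1 was not used. The study normalised to the global mean; here Cts were set against the mean Ct of the assays with a Ct in all samples compared, and tested with limma 3.58.1 (R 4.3.3), two-sided, with Benjamini-Hochberg adjustment over all assays. FC was the average of 2 to the power of minus ddCt against the mean wt control. Panels give no read depth; the 3 samples per group limit the precision. Each is a pool of 2 hippocampi, so p-values measure the spread between pools.

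Named assays were the 8 higher and the 8 lower with the lowest p among those without overlap, the 5 highest and the 5 lowest differences, the activity-regulated and inflammation lists, miRNAs named by the study, and assays with a Ct in 1 group alone. Strands singled out in the strand comparison, list examples and pairs of assays were chosen after their values were seen. Members and lists were chosen with earlier results of these data known. Alternatives were other normalisers, Ct limits of 12 and 26, other assay sets, array weights, a replicate block, the methods' t-test and leaving out samples. Sequences were found in RefSeq for 15 of 18 strands, and not for miR-685, miR-30d and miR-30d*. Scripts were tested on simulated data.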

Additional observations from a re-analysis of the deposited data

Results flagged for a closer look

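The negative control ath-miR159a, a plant miRNA that mouse RNA does not hold, gave a signal, though its lines take no part in the comparisons. It had a Ct of 13.5 in P2rx7-/- post-SE replicate 1 on one of its 2 lines and of 23.9 in wt control 1 on the other, and none in the other 10 samples. The former sample enters the P2rx7-/- differences and the latter the wt comparison.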

How the results depend on the processing

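No setting brought an assay past the adjusted threshold in limma: the count was 0 for the wt comparison and 0 for the difference between genotypes under all alternatives, leave-one-out included (0 to 0), with lowest adjusted p-values from 0.0768 (without wt control 2, miR-685) to 0.933 (without wt post-SE 2) in the former and from 0.472 to 0.980 in the latter. The methods' t-test called 12 assays at its unadjusted threshold and 0 after adjustment. The replicate numbers did not pair the samples, with correlations of same-numbered deviations of -0.02, -0.08 and 0.05. With the replicate block 0 assays passed in either comparison and 7 had an unadjusted p below 0.05 in the wt one. The FC counts moved more. The snoRNA202 wells, whose Cts lay near the lowest listed, shifted the median of all assays by -0.39 as normaliser. On them 62 assays were up and 85 down, and with snoRNA135, a shift of 0.20, 113 and 34. The median Ct as normaliser shifted the median of all assays by 0.13. Leaving out 1 sample gave 65 to 103 up and 25 to 66 down, the lowest of each without wt control 1, and 26 were down among the 431 assays with a Ct in the other 5 samples. Asking also for a p below 0.05 in the methods' t-test left 5 up and 2 down. Of the 94 assays up, 46 were no longer so without their highest post-SE sample. Of 39 named assays 33 kept their sign under all alternatives. The sign of miR-485-5p turned without wt control 1 (1.55), likewise on the assays with a Ct in the other 5 samples, and with array weights (1.05). The miR-146b assay with a difference of 0.12 turned with snoRNA202 (-0.27), without wt control 1 (-0.21) and without wt post-SE 3 (-0.07). It also turned on the assays of those 5 samples (-0.25) and with array weights (-0.03), whereas the other miR-146b assay kept its sign. The sign of miR-18a* turned with snoRNA202 (-0.20) and without wt control 3 (-0.09), and that of miR-22 with snoRNA135 (0.02). The miR-223 assay with a difference of -0.41 turned without wt control 3 (0.05) or wt post-SE 1 (0.10), and the other kept its sign. That of miR-142-3p turned without wt post-SE 1 (-0.10). The cause of these changes was not tested. The median SE was 0.614 for the 124 assays of lowest level and 0.442 for the 124 of highest level.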
